A study of Homo sapiens with 24 samples.

Results

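Homologous recombination and the pathways around it were followed through 35 listed genes, chosen by name. They fall into 4 roles: 18 genes of recombination, 9 of the Fanconi anemia pathway, 4 kinases of the damage checkpoint and 4 genes of excision, mismatch and translesion repair. Of the 35, 31 had a probe set that the platform annotation gives to that gene alone, out of 19775 genes named in this way, and all 31 reached a mean signal of 100 in the treated or the vehicle group of every comparison. BRCA2, RBBP8, FANCA and FANCD2 were not analysed here. RNA came from 4 prostate cancer cell lines, LNCaP, VCaP, PC3 and NCI-H660, each given DMSO (vehicle), 0.5 µM or 10 µM I-BET762 (GSK525762A), an inhibitor of the BET family of acetyl-lysine readers, for 24 hours. Each of the 12 groups had 2 biological replicates, 24 Affymetrix U133 Plus 2.0 arrays in all. LNCaP and VCaP are androgen-responsive lines from metastases, PC3, also from a metastasis (in bone), responds little to androgen, and NCI-H660 comes from a neuroendocrine prostate cancer. Each is a single cultured line, and the spread given below is between replicate cultures of that line.

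Homologous recombination repairs a broken chromosome by copying from the sister chromatid. Nucleases cut the ends back to single strands, the BRCA1, PALB2 and BRCA2 chain loads the strand exchange recombinase, translocases such as RAD54L help it invade the sister, and nucleases and helicases take the joined molecules apart. The Fanconi anemia proteins recognise crosslinks between DNA strands and feed them into the same route, while ATM and ATR sense damage and pass the signal to CHEK2 and CHEK1. Many of these genes are transcribed most strongly in S phase, so their transcript levels are often read beside those of replication genes.

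The identity of the lines was checked against marker genes. CAV1 and LCN2 were high in PC3 alone, CHGA and INSM1 were highest in NCI-H660, and KLK3, KLK2, TMPRSS2 and FOLH1 were high on the LNCaP- and VCaP-labelled arrays. ERG, which the gene fusion of VCaP and NCI-H660 switches on, lay at 2866.8 to 7084.5 on the 6 LNCaP-labelled arrays, at 5.9 to 28.3 on the 6 labelled VCaP and at 65.5 to 142.7 in NCI-H660. ETV1, rearranged in LNCaP, lay at 14.5 to 90.3 and at 191.7 to 407.8 on the LNCaP- and VCaP-labelled arrays. These markers go against the labels of both sets of arrays, so throughout the names LNCaP and VCaP stand only for what the arrays were labelled. The contrasts that take both together against the other lines are the same whichever way the labels run. CHGA lay at 354 to 674 on the LNCaP-labelled arrays as well. Median signals lay between 72.2 and 100.3 per array, a signal of 100 was reached by 44.4% to 50.1% of probe sets, and log2 signals of replicate arrays correlated at 0.934 to 0.953.

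Promoter sequence was examined because replication and mitosis genes each carry a known short element near their start sites. Windows of 300 bases, from 250 before to 50 after the start of RefSeq transcripts on GRCh38.p14, were held for 32 of the 35 genes. The letters of an E2F site (TTTGGCGC, TTTCGCGC or TTTCCCGC, on either strand) were found in 6 of the 32 genes (18.75%), against 3.3% of the 27305 genes with a window, 53.49% of the 43 replication genes used as a reference below and 9.8% of 51 mitosis genes. The CHR element of mitosis genes (TTTGAA, on either strand) was found in 5 of the 32 repair genes (15.62%), against 18.17% of all genes, 4.65% of the replication genes and 68.63% of the mitosis genes. The E-box CACGTG, which reads the same on both strands, was found in 12.5% of the repair genes and 8.77% of all genes. The E2F letters stood in EXO1, FANCC, FANCD2, GEN1, MSH6 and XRCC2, and the CHR letters in ATM, BRIP1, FANCC, POLQ and UNG.

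**Figure D1:**
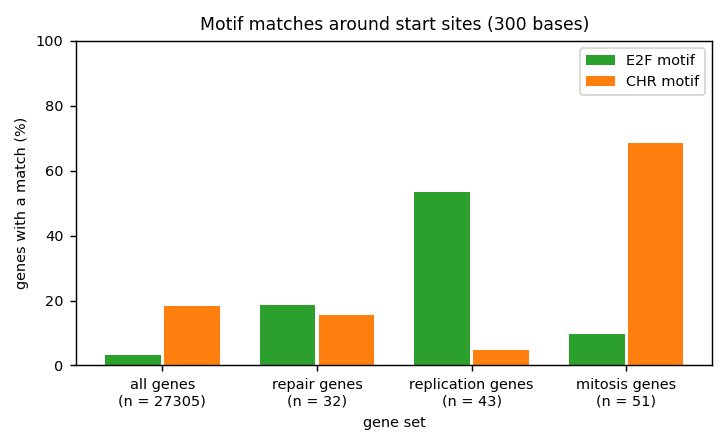
Share of genes (%) whose 300-base window around a RefSeq start site holds E2F letters (green) or CHR letters (orange), for all genes and for the repair, replication and mitosis genes. The repair genes stand at 18.75% for E2F and 15.62% for CHR, against 53.49% for E2F in replication genes and 68.63% for CHR in mitosis genes.

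The windows below are shown because their genes share the E2F letters, here in capitals, and were called differently. EXO1 was lower in all 4 comparisons under the LNCaP and VCaP labels, GEN1 was called in both directions, and XRCC2 was called in no comparison. XRCC2 was dim, with vehicle means of 103 to 158 outside PC3. EXO1 lies at chr1:241847954-241848253 on the plus strand, GEN1 at chr2:17753619-17753918 on the plus strand, and XRCC2 at chr7:152676092-152676391 on the minus strand, where the capitals are the reverse complement of TTTCCCGC.
EXO1: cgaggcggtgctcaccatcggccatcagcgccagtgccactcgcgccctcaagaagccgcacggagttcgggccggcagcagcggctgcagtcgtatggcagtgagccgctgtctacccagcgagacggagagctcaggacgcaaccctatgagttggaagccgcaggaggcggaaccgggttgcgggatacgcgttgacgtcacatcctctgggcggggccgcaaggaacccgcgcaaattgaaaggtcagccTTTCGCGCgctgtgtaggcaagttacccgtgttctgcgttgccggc
GEN1: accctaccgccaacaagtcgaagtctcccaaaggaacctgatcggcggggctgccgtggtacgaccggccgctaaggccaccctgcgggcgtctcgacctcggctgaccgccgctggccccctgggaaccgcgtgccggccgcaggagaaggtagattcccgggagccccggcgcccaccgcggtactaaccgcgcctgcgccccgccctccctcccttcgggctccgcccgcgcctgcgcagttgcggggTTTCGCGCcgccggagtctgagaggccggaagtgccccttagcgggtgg
XRCC2: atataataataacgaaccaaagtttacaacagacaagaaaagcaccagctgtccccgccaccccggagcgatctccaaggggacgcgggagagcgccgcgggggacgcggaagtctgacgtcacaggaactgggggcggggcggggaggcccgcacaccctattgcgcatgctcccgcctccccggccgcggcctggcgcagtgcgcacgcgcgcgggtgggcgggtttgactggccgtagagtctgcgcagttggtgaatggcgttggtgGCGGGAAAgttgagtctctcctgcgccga
The match begins 4 bases after the start in EXO1, 1 base after it in GEN1 and 21 bases after it in XRCC2. Of the 21 members with a window that were lower at 0.5 µM on the VCaP-labelled arrays, 4 held the E2F letters and 4 the CHR letters. Of the 7 measured members with a window that were not lower there, 1 held the E2F letters and 1 the CHR letters. Of the 11 lower at 0.5 µM under both labels, 1 held the E2F letters and 2 the CHR letters. A link between these letters and the changes was not tested.

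The fall of repair transcripts was concentrated on the LNCaP- and VCaP-labelled arrays. A gene was called changed when its mean signal reached 100 and limma's adjusted p, by Benjamini-Hochberg across the 54613 probe sets tested, was under 0.1, with no minimum fold. At 0.5 µM, 12 of the 31 members were lower and 3 higher on the LNCaP-labelled arrays, with a median log2 change of -0.32, and among all detected genes 16.5% were called lower and 17.4% higher. At 10 µM there, 14 were lower and 1 higher (median -0.28), against 26.7% and 27.1% of all genes. On the VCaP-labelled arrays, 23 were lower and 2 higher at 0.5 µM (median -1.05), against 13.2% and 11.8% of all genes, and again 23 and 2 at 10 µM (median -1.18), against 21.8% and 20.1%. Shares of members lower were thus 38.7% and 45.2% on the former arrays and 74.2% at each concentration on the latter.

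PC3 and NCI-H660 showed few changes among the members. At 0.5 µM limma called 0 of 31 in either line, with medians of 0.01 and 0.03. An unadjusted p under 0.05 was reached by 0 lower and 2 higher members in PC3, and by 1 lower and 2 higher in NCI-H660. The shares of all genes called were then 4.44% lower and 6.66% higher in PC3, and 3.27% and 4.36% in NCI-H660. At 10 µM, 5 members were lower and 2 higher in PC3, or 16.1% and 6.45%, against 14% and 16.1% of all genes. In NCI-H660 4 were lower and 5 higher, or 12.9% and 16.1%, against 16.8% and 16.9%, so these shares lay near or under the background. The 5 lower members of PC3 became 0 without the vehicle array of replicate 2 (6 at an unadjusted p under 0.05 in limma), 3 without that of replicate 1 and 1 without replicate 1 at 10 µM.

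**Figure D2:**
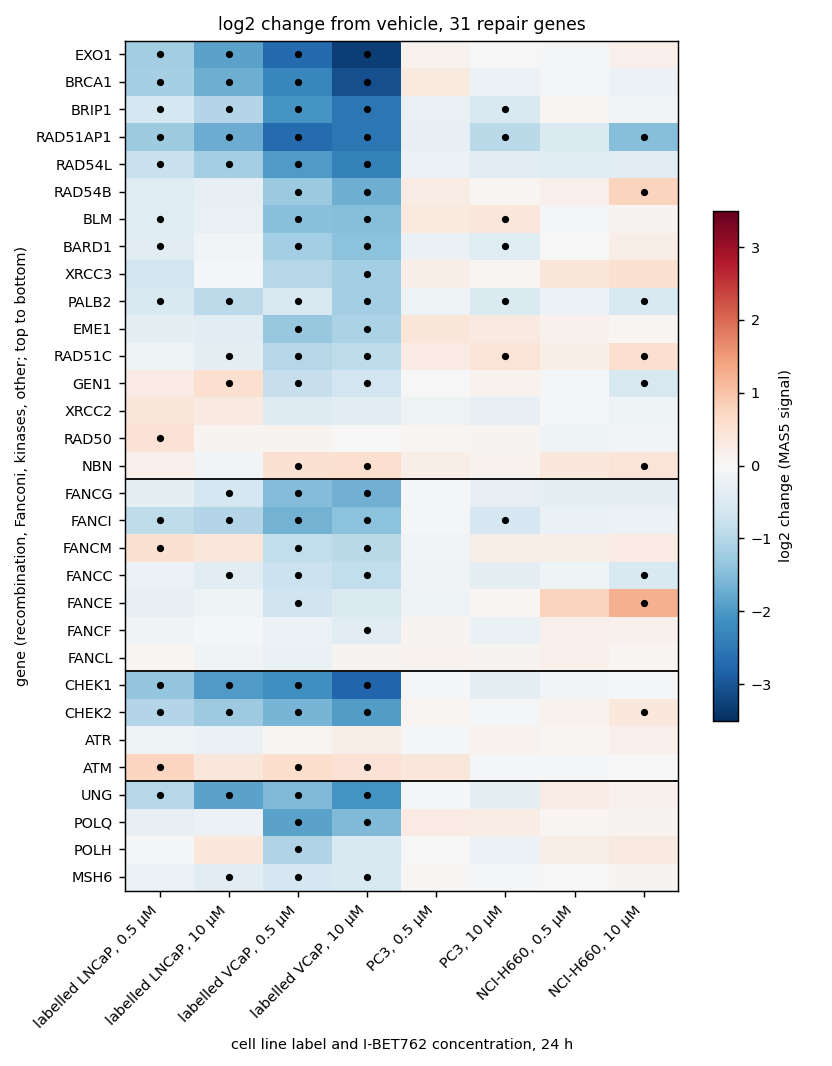
Log2 change from vehicle (colour) of the 31 measured repair genes (rows, by role) in the 8 comparisons of line label and I-BET762 concentration (columns). Black dots mark genes called by limma, and the columns labelled VCaP hold 23 lower genes each, against 12 and 14 in the LNCaP-labelled arrays, 0 and 5 in PC3 and 0 and 4 in NCI-H660.

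Over the 8 comparisons, 25 members were lower at least once, 10 were higher at least once, 7 were both, and 3, ATR, FANCL and XRCC2, were called in none. XRCC2 was measured only by a probe set of the _x_at type, whose probes can bind related transcripts. By their brightest probe sets, RAD51AP1 and PALB2 were lower in all 4 lines at 10 µM, and BRIP1, FANCI and FANCC in 3 of the 4. For these counts over the 8 comparisons and across the lines, no matching share of all genes was counted. Whether they exceed the background is therefore not known. Of the 96 calls over members and comparisons, 63 were kept when any 1 array was left out.

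Among the recombination genes, 16 of 18 were measured. The VCaP-labelled arrays had 12 lower and 1 higher after 0.5 µM, then 13 and 1 after 10 µM, and the LNCaP-labelled arrays 8 and 1, then 7 and 1. In PC3 4 were lower and 2 higher at 10 µM, and in NCI-H660 3 lower and 3 higher. Of all genes, 13.2% and 21.8% were lower on the VCaP-labelled arrays and 16.5% and 26.7% on the LNCaP-labelled arrays. At 10 µM 14% were lower and 16.1% higher in PC3, and 16.8% and 16.9% in NCI-H660. The small counts of these 2 lines were not tested against those shares. EXO1, BRCA1 and RAD51AP1 had the largest fitted falls of these genes at each concentration on the LNCaP-labelled arrays.

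EXO1 encodes an exonuclease that cuts back DNA ends and excises mismatched strands. Its signal was 698 and 742 in vehicle, 93.9 and 127 at 0.5 µM and 64.0 and 83.5 at 10 µM on the VCaP-labelled arrays, and on the LNCaP-labelled arrays it was 598 and 735 in vehicle, 272 and 296 at 0.5 µM and 178 and 185 at 10 µM. Every treated array lay under every vehicle array of the same label. The log2 change at 0.5 µM was -2.72 (SE 0.16, limma adjusted p = 3.26e-07) on the VCaP-labelled arrays and -1.22 (SE 0.16, adjusted p = 0.000263) on the LNCaP-labelled arrays. At 10 µM the mean on the VCaP-labelled arrays was under the floor of 100, so that EXO1 was at least 7.20-fold lower than vehicle, and the log2 change on the LNCaP-labelled arrays was -1.87. In PC3 EXO1 read 794 and 755 in vehicle, 847 and 839 at 0.5 µM and 730.2 and 807 at 10 µM, and in NCI-H660 864 and 961 in vehicle, 885 and 861 at 0.5 µM and 1091 and 968 at 10 µM. Neither line gave a called change, with log2 differences between -0.06 and 0.17.

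BRCA1 organises the loading of the recombinase at cut-back ends. It read 1119 and 1347 in vehicle, 229 and 275 at 0.5 µM and 191 and 111 at 10 µM on the VCaP-labelled arrays and 853 and 1196 in vehicle, 524 and 393 at 0.5 µM and 294 and 319 at 10 µM on the LNCaP-labelled arrays. The steps were -2.29 and -3.07 (SE 0.24 each, adjusted p = 4.05e-05 and 1.31e-06) on the former and -1.15 and -1.72 on the latter, on the log2 scale and each against vehicle. Of the 2 detected probe sets of BRCA1, 2 were called lower at each concentration on the former. On the latter only 1, the brightest, was called lower at each. PC3 arrays read 786 and 709 in vehicle, 898 and 1002 at 0.5 µM and 589.9 and 704 at 10 µM. NCI-H660 arrays read 969 and 1105 in vehicle, 1018 and 1012 at 0.5 µM and 871 and 929 at 10 µM, and no change was called in either line. BARD1, the partner of BRCA1 in its ubiquitin ligase, was also lower on the VCaP-labelled arrays (-1.18 and -1.44), on the LNCaP-labelled arrays at 0.5 µM (-0.40) and in PC3 at 10 µM (-0.43). Of the 3 detected probe sets of BARD1, 2 were called lower at each concentration on the VCaP-labelled arrays. Only 1 was on the LNCaP-labelled arrays at 0.5 µM, and 1 in PC3 at 10 µM.

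BRIP1 is a helicase that binds BRCA1. Its signal on the VCaP-labelled arrays was 570.1 and 657 in vehicle, 139 and 154 at 0.5 µM and 100.5 and 109.9 at 10 µM, and on the LNCaP-labelled arrays 463 and 604 in vehicle, 348 and 347 at 0.5 µM and 272 and 253 at 10 µM. The change at 10 µM was -2.54 on the log2 scale in the former (adjusted p = 4.26e-08) and -1.01 in the latter (adjusted p = 7.02e-05). PC3 had 1378 and 1405 in vehicle, 1108 and 1237 at 0.5 µM and 960.2 and 976 at 10 µM, a change at 10 µM of -0.52 on the log2 scale (SE 0.13, adjusted p = 0.0218). NCI-H660 had 698 and 775 in vehicle, 786 and 744 at 0.5 µM and 695 and 684 at 10 µM, with no call at either concentration.

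RAD51AP1 binds the recombinase and helps joint molecules form. It was the member with the deepest fall outside the LNCaP- and VCaP-labelled arrays. NCI-H660 read 2702 and 3412 in vehicle, 2427 and 1900.2 at 0.5 µM and 1168 and 1014 at 10 µM, with the arrays at 10 µM under all others of the line (log2 change -1.48, SE 0.25, limma adjusted p = 0.00127). PC3 read 1419 and 1550.1 in vehicle, 939.9 and 1562 at 0.5 µM and 596 and 1007 at 10 µM, with replicates at 10 µM well apart (log2 change -0.94, adjusted p = 0.0258). The VCaP-labelled arrays read 2567 and 2741 in vehicle, 419.5 and 404 at 0.5 µM and 446 and 466 at 10 µM. The LNCaP-labelled arrays read 2080.2 and 2025 in vehicle, 833 and 890.3 at 0.5 µM and 618 and 617 at 10 µM. The changes at 0.5 µM were -2.69 and -1.25 there, and the groups did not overlap.

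PALB2, the bridge between BRCA1 and BRCA2, had smaller falls in more lines. It read 203 and 259.5 in vehicle, 168 and 152 at 0.5 µM and 119 and 126 at 10 µM on the LNCaP-labelled arrays and 552 and 652 in vehicle, 361 and 449 at 0.5 µM and 258 and 270.5 at 10 µM on the VCaP-labelled arrays. In PC3 it read 833 and 778 in vehicle, 701 and 726 at 0.5 µM and 574 and 564 at 10 µM, and in NCI-H660 957 and 836 in vehicle, 770.5 and 775 at 0.5 µM and 607 and 634 at 10 µM. At 10 µM the log2 change was -0.91, -1.18, -0.50 and -0.53 in that order (SE 0.14 each), with limma adjusted p between 6.57e-05 and 0.0397. The 2 arrays at 10 µM lay under both vehicle arrays in each of the 4. The call of PALB2 in PC3 was lost, however, without any 1 of 4 arrays, and that in NCI-H660 without either of 2.

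RAD51C and RAD54B moved in opposite directions in different lines. RAD51C, a relative of the recombinase that helps to load it, read 3256 and 3244 in vehicle, 1662 and 1618 at 0.5 µM and 1839.8 and 1681 at 10 µM on the VCaP-labelled arrays and 1831 and 1767 in vehicle, 1636 and 1607 at 0.5 µM and 1371 and 1496 at 10 µM on the LNCaP-labelled arrays. It fell by 0.89 and 0.33 on the log2 scale at 10 µM. In PC3 it read 2688 and 2496 in vehicle, 3332 and 3042 at 0.5 µM and 3371 and 3849 at 10 µM, and in NCI-H660 1668 and 1644 in vehicle, 2029 and 1790.2 at 0.5 µM and 2405 and 2434 at 10 µM. There it was 0.48 and 0.55 higher at 10 µM (adjusted p = 0.0123 and 0.00441). The gene's second probe set was called in neither line, at 0.22 in PC3 and -0.12 in NCI-H660. RAD54B, a translocase that assists strand exchange, read 799 and 944 in vehicle, 354 and 356 at 0.5 µM and 295 and 239 at 10 µM on the VCaP-labelled arrays, a fall of 1.29 and 1.71 on the log2 scale. In NCI-H660 it read 2128 and 2059 in vehicle, 2462 and 2299.8 at 0.5 µM and 3321 and 3889 at 10 µM, and was higher at 10 µM by 0.78 (SE 0.16, adjusted p = 0.0057). It was not called on the LNCaP-labelled arrays, which read 699 and 741 in vehicle, 556 and 525 at 0.5 µM and 630.1 and 557 at 10 µM, or in PC3, which read 2455 and 2149.7 in vehicle, 3232 and 2340.0 at 0.5 µM and 2486 and 2367 at 10 µM.

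**Figure D3:**
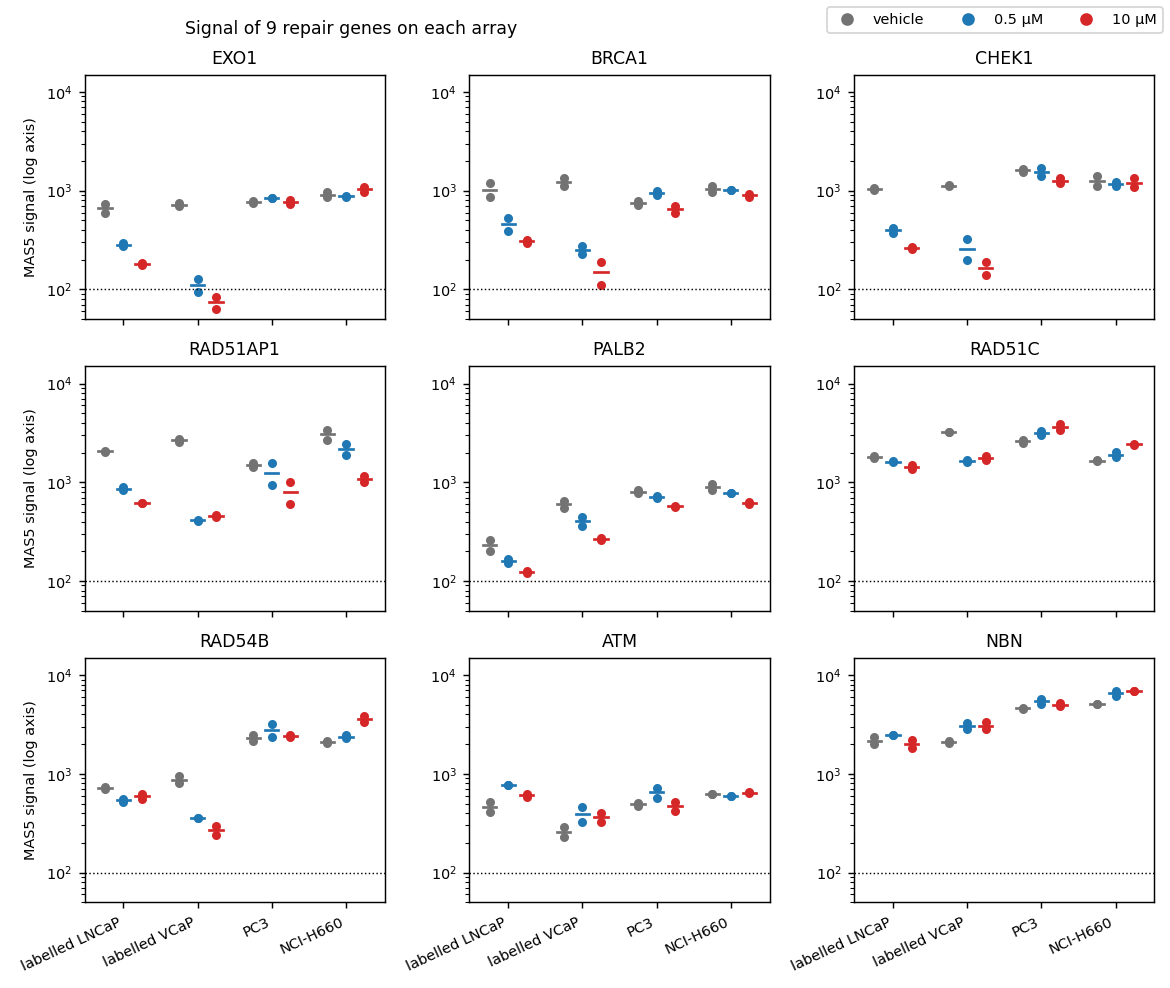
MAS5 signal (log axis) of 9 repair genes on each array, by line label and treatment after 24 hours (vehicle in grey, 0.5 µM in blue, 10 µM in red). Each dot is 1 array, each bar the mean of a pair, and the dotted line the floor of 100; EXO1 on the VCaP-labelled arrays goes from a mean of 720.2 to 110.5 at 0.5 µM, while RAD54B in NCI-H660 goes from 2093 to 3605 at 10 µM.

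BLM, the helicase that dissolves crossed strands, read 484 and 530.0 in vehicle, 165 and 203 at 0.5 µM and 181 and 180.2 at 10 µM on the VCaP-labelled arrays and 905 and 928 in vehicle, 1224 and 1090.4 at 0.5 µM and 1177 and 1216 at 10 µM in PC3. It fell by 1.47 and 1.49 on the log2 scale on the former and was 0.38 higher in PC3 at 10 µM (adjusted p = 0.0618). On the LNCaP-labelled arrays it read 586 and 665 in vehicle, 449 and 475 at 0.5 µM and 521 and 519.5 at 10 µM, lower at 0.5 µM only, and in NCI-H660 1033 and 966 in vehicle, 948 and 949.6 at 0.5 µM and 1128 and 1018 at 10 µM, with no call. GEN1, a nuclease that cuts crossed strands, is a dim transcript here. It read 149 and 163 in vehicle, 172 and 207 at 0.5 µM and 200 and 264 at 10 µM on the LNCaP-labelled arrays, where it was 0.56 higher at 10 µM, and 218 and 216 in vehicle, 128 and 123 at 0.5 µM and 147 and 127 at 10 µM on the VCaP-labelled arrays, where it was lower at both concentrations (-0.80 and -0.67). NCI-H660 read 194 and 207 in vehicle, 183 and 200.3 at 0.5 µM and 146 and 125 at 10 µM, lower at 10 µM (-0.57, adjusted p = 0.021), and PC3 read 211 and 220.1 in vehicle, 228 and 206 at 0.5 µM and 227 and 242 at 10 µM, with no call.

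NBN and RAD50 belong to the complex that first binds broken ends, and neither was lower in any comparison by its brightest probe set. NBN read 2035 and 2152 in vehicle, 2869 and 3247 at 0.5 µM and 2829.5 and 3341 at 10 µM on the VCaP-labelled arrays, higher by 0.54 and 0.55 on the log2 scale (SE 0.13, adjusted p = 0.0214 and 0.00959). In NCI-H660 it read 5061 and 5045 in vehicle, 6951 and 6143 at 0.5 µM and 6835 and 6883 at 10 µM, higher by 0.44 at 10 µM (adjusted p = 0.0432). It was not called on the LNCaP-labelled arrays, which read 1989.9 and 2344 in vehicle, 2455 and 2450.1 at 0.5 µM and 2187 and 1837 at 10 µM, or in PC3, which read 4536 and 4654 in vehicle, 5756 and 5141 at 0.5 µM and 4834 and 5176 at 10 µM. RAD50 was higher on the LNCaP-labelled arrays at 0.5 µM only (0.52, adjusted p = 0.0536), where 2 of its 3 detected probe sets were higher. At 10 µM 1 of the 3, not the brightest, was called lower in PC3, and 1 in NCI-H660.

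The remaining recombination genes were called mostly on the VCaP-labelled arrays. RAD54L, the main translocase of strand exchange, was lower there (-1.99 and -2.36) and on the LNCaP-labelled arrays (-0.78 and -1.18). EME1, which pairs with a structure-specific nuclease, was lower only on the VCaP-labelled arrays (-1.32 and -1.10), and XRCC3, a further relative of the recombinase, was lower there at 10 µM (-1.20). XRCC2 lay between -0.44 and 0.44 on the log2 scale over the 8 comparisons.

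Of the Fanconi genes 7 of 9 were measured, with 5 lower at each concentration on the VCaP-labelled arrays, 1 and then 3 lower on the LNCaP-labelled arrays, and 1 lower at 10 µM in PC3 and in NCI-H660. The shares of all genes lower were, in the same order, 13.2% and 21.8%, 16.5% and 26.7%, 14% and 16.8%. FANCI, a part of the clamp that the pathway places on DNA, read 3518 and 4049 in vehicle, 1224 and 1175 at 0.5 µM and 1331 and 1467 at 10 µM on the VCaP-labelled arrays and 3762 and 3663 in vehicle, 1821 and 2242 at 0.5 µM and 1701 and 1928 at 10 µM on the LNCaP-labelled arrays. The log2 change at 0.5 µM was -1.65 and -0.88 (SE 0.15 each, adjusted p = 1.13e-05 and 0.00163). PC3 read 3228 and 3732 in vehicle, 3430.3 and 3291 at 0.5 µM and 2038 and 2615 at 10 µM, a fall of 0.59 at 10 µM (adjusted p = 0.0224). NCI-H660 read 2642 and 3078 in vehicle, 2399.5 and 2466 at 0.5 µM and 2567 and 2424 at 10 µM, with no call by this brightest probe set. Of the 3 detected probe sets of FANCI, however, 2 were called lower in NCI-H660 at 10 µM and 1 at 0.5 µM.

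The subunits of the Fanconi core complex did not move as a block. FANCG was lower on the VCaP-labelled arrays (-1.52 and -1.69) and on the LNCaP-labelled arrays at 10 µM (-0.60). FANCC read 561 and 657 in vehicle, 358 and 363 at 0.5 µM and 336 and 332 at 10 µM on the VCaP-labelled arrays and 489 and 413 in vehicle, 369 and 412 at 0.5 µM and 345 and 341 at 10 µM on the LNCaP-labelled arrays. PC3 read 323 and 377 in vehicle, 333 and 303 at 0.5 µM and 299.5 and 263 at 10 µM and NCI-H660 819 and 683 in vehicle, 669 and 681 at 0.5 µM and 542 and 494 at 10 µM. FANCC was lower at 10 µM by 0.86, 0.39 and, in NCI-H660, 0.53 on the log2 scale. FANCF was lower only on the VCaP-labelled arrays at 10 µM (-0.40), and FANCL, the ligase subunit, lay between -0.24 and 0.19.

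FANCE, which ties the core complex to its substrate, rose in NCI-H660, where it read 379 and 342 in vehicle, 606 and 641 at 0.5 µM and 823 and 882 at 10 µM. The log2 change was 1.24 at 10 µM (SE 0.24, limma adjusted p = 0.00356), the largest rise of any member, and 0.79 at 0.5 µM, where it was not called (adjusted p = 0.13). On the VCaP-labelled arrays FANCE read 382 and 375 in vehicle, 254 and 214 at 0.5 µM and 220.1 and 323 at 10 µM, lower at 0.5 µM only (-0.70, adjusted p = 0.0988), a call that was lost without any 1 of 16 of the 24 arrays. It read 465 and 304 in vehicle, 335 and 284 at 0.5 µM and 323 and 349 at 10 µM on the LNCaP-labelled arrays and 367 and 274 in vehicle, 240.3 and 333 at 0.5 µM and 369 and 299 at 10 µM in PC3, with no call. FANCM, the translocase that anchors the core complex, read 185 and 192 in vehicle, 261 and 284 at 0.5 µM and 234 and 263 at 10 µM on the LNCaP-labelled arrays, higher at 0.5 µM by 0.53, and 246 and 249 in vehicle, 116 and 160.3 at 0.5 µM and 121 and 138 at 10 µM on the VCaP-labelled arrays, lower by 0.86 and 0.94. PC3 read 327 and 317 in vehicle, 276 and 332 at 0.5 µM and 438 and 318 at 10 µM and NCI-H660 260.3 and 321 in vehicle, 343 and 328 at 0.5 µM and 335 and 367 at 10 µM, with no call.

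The checkpoint kinases split by tier. By the brightest probe set of each gene, CHEK1 and CHEK2, which carry the signal onward, were lower in all 4 comparisons on the LNCaP- and VCaP-labelled arrays. By the same rule the sensor kinase ATR was called in none and ATM was higher in 3 of the 4. Of the 4 detected probe sets of ATM, 3 were higher at 0.5 µM on the LNCaP-labelled arrays. On the VCaP-labelled arrays only 1 of the 4 was higher at each concentration. CHEK1 read 1130.3 and 1115 in vehicle, 197 and 321 at 0.5 µM and 141 and 191 at 10 µM on the VCaP-labelled arrays and 1022 and 1058 in vehicle, 374 and 419.8 at 0.5 µM and 257 and 266 at 10 µM on the LNCaP-labelled arrays. The log2 change was -2.16 and -2.77 on the former (adjusted p = 2.40e-05 and 1.21e-06) and -1.39 and -1.99 on the latter (adjusted p = 0.000724 and 1.14e-05). In PC3 CHEK1 read 1554 and 1655 in vehicle, 1407 and 1678 at 0.5 µM and 1203 and 1328 at 10 µM and in NCI-H660 1123 and 1405 in vehicle, 1219.7 and 1113 at 0.5 µM and 1328 and 1080.1 at 10 µM, with no call.

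CHEK2 was lower by 1.62 and 1.96 on the VCaP-labelled arrays and by 1.02 and 1.27 on the LNCaP-labelled arrays, on the log2 scale. In NCI-H660 it was 0.37 higher at 10 µM (SE 0.12, adjusted p = 0.0609). ATM read 407 and 518 in vehicle, 774 and 772 at 0.5 µM and 622 and 587 at 10 µM on the LNCaP-labelled arrays and 227 and 291 in vehicle, 326 and 465 at 0.5 µM and 404 and 329 at 10 µM on the VCaP-labelled arrays. It was higher by 0.75 at 0.5 µM on the former (adjusted p = 0.02) and by 0.60 and 0.51 on the latter (adjusted p = 0.0778 and 0.1), and at 10 µM on the former it was not called (0.40). The call at 10 µM on the latter was lost without any 1 of 15 of the 24 arrays. PC3 read 475 and 510.2 in vehicle, 574 and 726 at 0.5 µM and 424 and 514 at 10 µM and NCI-H660 632 and 632 in vehicle, 599.9 and 602 at 0.5 µM and 635 and 652 at 10 µM, with no call. When each array was centred on its median, which shifted the changes labelled LNCaP by -0.18 and -0.13, those labelled VCaP by -0.07 and -0.13 and those of NCI-H660 by 0.18 at 10 µM, 0 members were called higher by limma at 0.5 µM under either label (1 labelled LNCaP and 2 labelled VCaP at an unadjusted p under 0.05). On the VCaP-labelled arrays ATM was then at 0.54 and NBN at 0.48 at 0.5 µM (adjusted p = 0.202 and 0.102).

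Of the remaining 4 genes, UNG, the glycosylase that removes uracil from DNA, was lower in all 4 comparisons under both labels. It read 3007 and 3502 in vehicle, 1503 and 1734 at 0.5 µM and 924 and 858 at 10 µM on the LNCaP-labelled arrays and 2914 and 3025 in vehicle, 1032 and 991 at 0.5 µM and 741 and 651 at 10 µM on the VCaP-labelled arrays. The log2 change was -1.01 and -1.87 on the former (SE 0.15, adjusted p = 0.000601 and 9.27e-07) and -1.55 and -2.10 on the latter. PC3 read 3848 and 4158 in vehicle, 3473 and 4286 at 0.5 µM and 3099 and 3180.5 at 10 µM and NCI-H660 2571 and 3413 in vehicle, 3618 and 3443 at 0.5 µM and 3337 and 3272 at 10 µM, with no call. POLQ, the polymerase of end joining at short homologies, was lower on the VCaP-labelled arrays (-1.88 and -1.54) and was not called elsewhere. MSH6, a mismatch recognition subunit, was lower there (-0.58 and -0.54) and on the LNCaP-labelled arrays at 10 µM (-0.38). POLH, which copies past ultraviolet lesions, was lower by its brightest probe set only on the VCaP-labelled arrays at 0.5 µM (-1.05). It read 129 and 77.4 there, near the floor, and 3 of its 5 detected probe sets were lower. At 10 µM on these arrays 1 of the 5, not the brightest, was lower. At 10 µM 1 of 6 was higher on the LNCaP-labelled arrays and 1 of 6 in NCI-H660.

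The members were next set beside proliferation transcripts. An index was formed on each array as the mean log2 signal of 109 genes, 49 of DNA replication and 60 of mitosis, none of them a member, and the same limma fit was made on each gene's log2 signal minus the index. On the LNCaP-labelled arrays the index changed by -0.51 and -0.73 at 0.5 and 10 µM, with replication genes at -0.83 and -1.31 and mitosis genes at -0.24 and -0.26. On the VCaP-labelled arrays it changed by -1.70 at each concentration, with replication genes at -1.67 and -2.04 and mitosis genes at -1.72 and -1.42. In PC3 it changed by -0.08 and -0.37 and in NCI-H660 by -0.14 and -0.19. Of the 109 genes, 62 and 69 were lower on the LNCaP-labelled arrays, 109 and 102 on the VCaP-labelled arrays, 8 and 49 in PC3 and 6 and 29 in NCI-H660. A change in the share of cells in S phase and a change in transcript per cell cannot be told apart in these bulk samples.

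**Figure D4:**
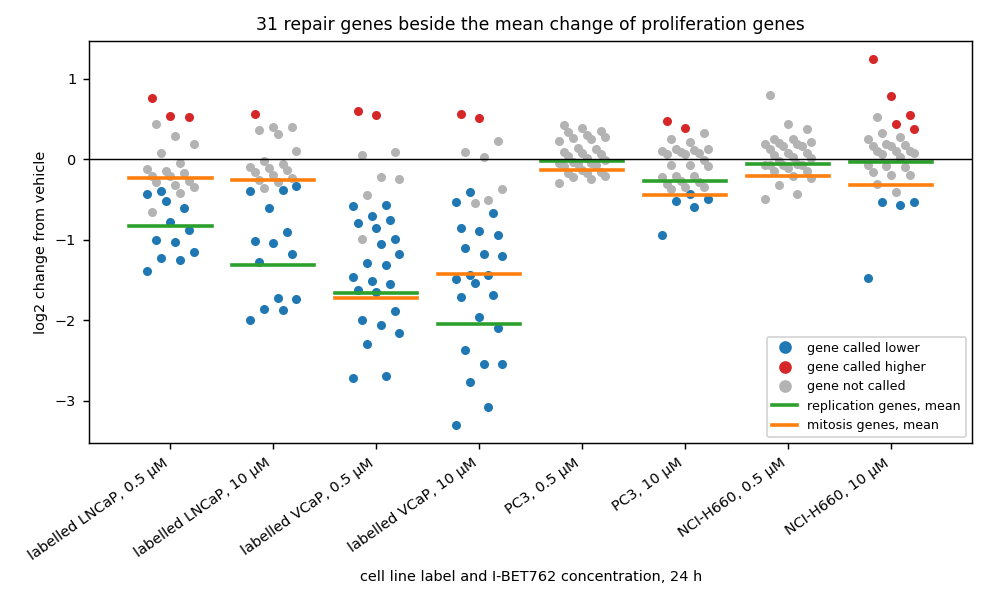
Log2 change from vehicle of each of the 31 repair genes (dots: blue, called lower; red, called higher; grey, not called) in the 8 comparisons, beside the mean change of 49 replication genes (green line) and 60 mitosis genes (orange line). On the LNCaP-labelled arrays the lines stand apart, at -1.31 and -0.26 at 10 µM, and several repair genes lie under both.

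Members that fell further than the index on the VCaP-labelled arrays numbered 5 of the 23 lower at 0.5 µM: EXO1, RAD51AP1, BRCA1, CHEK1 and BRIP1. Across all detected genes 0.685% lay below the index in this fit and 94.2% above it. A further 7, CHEK2, UNG, POLQ, FANCI, FANCG, RAD54L and EME1, were not separated from it, and the other 11 fell less: BLM, RAD51C, RAD54B, BARD1, PALB2, GEN1, POLH, MSH6, FANCM, FANCE and FANCC. At 10 µM CHEK2, UNG and RAD54L joined the first 5, making 8, against 1.46% of all genes below and 91.7% above, with 5 not separated and 10 that fell less. Against the replication genes alone 5 fell further at 10 µM, 3 were not separated and 15 fell less, and against the mitosis genes alone these counts were 9, 8 and 6. At 0.5 µM 5 fell further against either list. The extra fall was -1.02 for EXO1 (adjusted p = 3.76e-05), -0.99 for RAD51AP1 (adjusted p = 0.00271) and -0.59 for BRCA1 (adjusted p = 0.029) at 0.5 µM. Without the vehicle array of replicate 2 labelled VCaP 2 members were below the index at 0.5 µM, and without replicate 1 at 0.5 µM 3.

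On the LNCaP-labelled arrays 7 of the 12 lower members fell further than the index at 0.5 µM, CHEK1, RAD51AP1, EXO1, BRCA1, CHEK2, UNG and FANCI, against 5.13% of all genes below it and 56.3% above. The other 5 were not separated from it. At 10 µM 7 of 14 fell further, with BRIP1 in place of FANCI, 4 were not separated and 3 fell less, against 8.8% of all genes below and 64.9% above. These counts depended on which proliferation genes made the index. Against the replication genes alone 2 of the 12 fell further at 0.5 µM, CHEK1 and EXO1, and 3 of the 14 at 10 µM, CHEK1, EXO1 and UNG. Against the mitosis genes alone 8 and 11 did. Without the vehicle array of replicate 2 labelled LNCaP, or without replicate 1 at 0.5 µM, 4 members were below the index at 0.5 µM in place of 7.

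CHEK1, BRCA1, EXO1 and RAD51AP1, each by its brightest probe set, were further down than the index in each of the 4 comparisons on the LNCaP- and VCaP-labelled arrays. For EXO1 and CHEK1 this also held against the replication genes alone in these 4 comparisons. For EXO1 the difference from the index was -0.72 and -1.14 on the LNCaP-labelled arrays and -1.02 at 0.5 µM on the VCaP-labelled arrays, on the log2 scale. No size is given for EXO1 there at 10 µM, where its mean lay under the floor. For CHEK1 it was -0.89 and -1.26, and -0.46 and -1.07.

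In PC3 at 10 µM the 5 lower members, RAD51AP1, FANCI, BRIP1, PALB2 and BARD1, were not separated from the index, and 4.99% of all genes were below it. Against the replication genes alone RAD51AP1 was further down (-0.66, adjusted p = 0.0944). In NCI-H660 at 10 µM, where the replication genes changed by -0.04, RAD51AP1 was below the index by -1.29 (SE 0.25, adjusted p = 0.00283), against 10.6% of all genes. GEN1, PALB2 and FANCC were not separated from the full index, and all 4 were below that of the replication genes alone, by -1.44, -0.53, -0.49 and -0.49 for RAD51AP1, GEN1, PALB2 and FANCC.

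Raising the concentration from 0.5 to 10 µM deepened few of the falls. The share of members lower was 6.45% on the LNCaP-labelled arrays, 12.9% on the VCaP-labelled arrays and 3.23% in NCI-H660. Only on the VCaP-labelled arrays was it above the share of all genes lower. EXO1 and UNG were lower at 10 than at 0.5 µM on the LNCaP-labelled arrays (-0.65 and -0.86, limma adjusted p = 0.0315 and 0.00402), where 10.2% of all genes were lower and 9.44% higher. On the VCaP-labelled arrays 4 members were lower, PALB2 (-0.61), UNG (-0.54), BRIP1 (-0.48) and EXO1, against 5.62% and 4.29%. No size is given for EXO1, whose mean at 10 µM lay under the floor. In NCI-H660 RAD51AP1 was lower (-0.98) and RAD54B higher (0.59), against 4.16% and 3.16%. In PC3 limma called 0 members between the concentrations, against 1.17% lower and 0.987% higher among all genes, and 6 members had an unadjusted p under 0.05. The calls on the VCaP-labelled arrays were weak, at adjusted p between 0.0394 and 0.0871, and were 0 without replicate 2 at 0.5 µM (7 at an unadjusted p under 0.05) and 1 or 2 without most other arrays. Those in NCI-H660 were 0 without any 1 of its 4 treated arrays (3 to 5 at an unadjusted p under 0.05).

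The response differed between the lines by direct test. The change was further down on the VCaP-labelled arrays than on the LNCaP-labelled arrays for 15 members at 0.5 µM against 5.7% of all genes. Limma called 0 members higher (0 also at an unadjusted p under 0.05), against 2.99%. POLQ (-1.61), EXO1 (-1.50), BRIP1 (-1.46) and RAD51AP1 (-1.44) had the widest log2 differences. Without the vehicle array of replicate 2 labelled VCaP the count was 9. At 10 µM it was 13 further down and 1 higher, NBN (0.66, adjusted p = 0.0473), against 12.1% and 9.78%. The mean change of both labels was further down than the mean of PC3 and NCI-H660 for 18 members at 0.5 µM, against 8.52% lower and 5.78% higher among all genes, and for 20 at 10 µM, against 16.7% and 15.2%. BRCA1 (-2.19), CHEK1 (-2.18) and UNG (-1.88) were among those further down at 10 µM, as was EXO1, which has no size here because its mean on the VCaP-labelled arrays lay under the floor.

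Several genes have more than 1 probe set, and 18 of the 31 could be compared in this way. In 3 cases probe sets of a gene were called in opposite directions. The fourth probe set of CHEK1 by signal was higher at 10 µM on the LNCaP-labelled arrays (1.002) and in PC3 (0.73), while the brightest was at -1.99 and -0.34 and the second at -1.51 and -0.47. The fourth probe set of NBN was lower in NCI-H660 at 10 µM (-2.04), while its other 4 were higher by 0.44 to 0.75. The transcripts that these probe sets bind were not examined here.

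In vehicle, the members' levels differed between the 4 lines for 27 of 31 by a limma F-test, against 89.9% of all detected genes, so that the share was close to the background. FANCL was spread most widely, from a mean of 811 on the VCaP-labelled arrays to 4083 in NCI-H660, 5.04-fold. BARD1 followed at 4.74-fold, from 1137 in PC3 to 5394 in NCI-H660, then MSH6 at 4.34-fold, from 1232 on the LNCaP-labelled arrays to 5342 in NCI-H660, and PALB2 at 3.88-fold, from 231 to 897 in the same lines. BRCA1, EXO1, FANCE and FANCI were not called different, with adjusted p of 0.101, 0.125, 0.757 and 0.108. On the LNCaP- and VCaP-labelled arrays, where both genes fell, the vehicle means were 1025 and 1233 for BRCA1 and 667 and 720.2 for EXO1.

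Other genes of DNA repair were counted from a list of 110 that holds no member, of which 101 were measured. On the LNCaP-labelled arrays 17 of the 98 detected were lower and 20 higher at 0.5 µM, against 31 and 27 at 10 µM. On the VCaP-labelled arrays 30 of 99 were lower and 6 higher, then 37 and 17. In PC3 the counts were 2 and 11, then 17 and 22, and in NCI-H660 1 and 7, then 17 and 18, of 98. Among all genes, 16.5% were lower and 17.4% higher on the LNCaP-labelled arrays at 0.5 µM, and 26.7% and 27.1% at 10 µM. On the VCaP-labelled arrays these shares were 13.2% and 11.8%, then 21.8% and 20.1%. In PC3 they were 4.44% and 6.66%, then 14% and 16.1%, and in NCI-H660 3.27% and 4.36%, then 16.8% and 16.9%. The counts were not tested against these shares. The median log2 changes lay between -0.24, on the VCaP-labelled arrays at 10 µM, and 0.06, in NCI-H660 at 10 µM. RMI2, a partner of BLM, fell by 2.04 and 2.86 on the log2 scale on the VCaP-labelled arrays, where UVSSA, a factor of transcription-coupled excision repair, was higher by 0.83 and 1.01. In PC3 and NCI-H660 MSH3, a mismatch recognition subunit, was higher at each concentration, by 0.93 to 1.35. RAD51D, a relative of RAD51C, was lower at 10 µM on the LNCaP-labelled arrays (-1.56), in PC3 (-0.91) and in NCI-H660 (-1.64).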

How the data were processed

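RNA of 4 prostate cancer cell lines was hybridised to 24 arrays, 2 biological replicates in each of 12 groups. The deposited table gives the MAS5 intensity of each probe set, linear and scaled by the authors to a target of 500 per array. Neither present calls nor probe-level data entered the work. After removal of 62 controls from 54675 probe sets, 54613 were tested. By the platform annotation 41091 have 1 symbol, 1801 have several and 11721 have none. Each gene took its brightest single-symbol probe set, by the mean of log2 signals, and _x_at sets were used only where no other existed. Some genes are not reported here.

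One linear model with a term for each of the 12 groups was fitted to log2 signals (limma 3.58.1, R 4.3.3), and variances were moderated by eBayes without a trend, with 12 residual and 1.29 prior degrees of freedom. Benjamini-Hochberg adjustment ran over the probe sets of each contrast. Calls required an adjusted p under 0.1 and, in a group compared, a mean signal of 100 or more. The paper's fold minimum of 2 was an alternative, since small changes were of interest. A fold against a group under the floor is a bound against the floor. Shares of all genes are over genes with a detected probe set. For the comparison with proliferation, each array's mean log2 signal over 109 genes was subtracted before the same fit. Steps were tested on simulated data.

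The members were given by name, and the index genes, the other repair list and the marker genes were written with earlier results of these data known. Values on every array are given for the 3 members with the largest fall and 2 with the largest rise among those called in each comparison, for those higher at both concentrations in a line, and for those lower in 3 or more lines at 10 µM. CHEK2, RAD50 and other members outside this rule were named because counts were small. Of other lists up to 4 genes with the largest change per comparison could be named. Promoter windows and their coordinates are from RefSeq on GRCh38.p14, with matches read on both strands, and 3 of the 35 genes had no window. Alternatives were quantile normalization, median centring, no floor or a floor of 200, an intensity trend, each line alone, the replicate block, an adjusted p under 0.05, the fold minimum, the mean of a gene's probe sets, its second brightest probe set, an index of replication or mitosis genes alone, and leaving out each array. When an array was left out, its partner was taken to vary as the other groups do. The number of arrays limits the precision of each mean.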

Additional observations from a re-analysis of the deposited data

Results flagged for a closer look

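The following members were called in opposite directions under the same concentration in 2 lines, and limma's test of the difference itself passed an adjusted p of 0.1. Each value is the first line's log2 change minus the second's, and line names are those of the labels. Members whose changes differed in size only are counted in the report.

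CHEK2 was lower on the LNCaP- and VCaP-labelled arrays and higher in NCI-H660 at 10 µM, with differences of -1.64 (adjusted p = 3.49e-05) and -2.33 (adjusted p = 4.26e-06). RAD54B was lower on the VCaP-labelled arrays and higher in NCI-H660 at 10 µM, a difference of -2.49 (adjusted p = 2.53e-05). BLM was lower on the VCaP-labelled arrays and higher in PC3 at 10 µM, a difference of -1.87 (adjusted p = 3.47e-05), and its call in PC3 was lost without any 1 of the 4 arrays compared there.

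RAD51C was lower at 10 µM under both labels and higher in PC3 and NCI-H660. The LNCaP-labelled arrays differed by -0.80 from PC3 (adjusted p = 0.00467) and by -0.88 from NCI-H660 (adjusted p = 0.00181), and the VCaP-labelled arrays by -1.36 (adjusted p = 0.000184) and -1.43 (adjusted p = 8.55e-05). The second probe set of RAD51C was called in neither PC3 (0.22) nor NCI-H660 (-0.12), so the rise in each rests on 1 probe set.

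GEN1 was higher at 10 µM on the LNCaP-labelled arrays and lower on the VCaP-labelled arrays and in NCI-H660, with differences of 1.23 (adjusted p = 0.0026) and 1.13 (adjusted p = 0.0025). FANCM was higher at 0.5 µM on the LNCaP-labelled arrays and lower on the VCaP-labelled arrays, a difference of 1.39 (adjusted p = 0.0104). The call of FANCM on the LNCaP-labelled arrays was lost without any 1 of the 4 arrays compared and after median centring, at 0.35 (adjusted p = 0.271). Its call on the VCaP-labelled arrays was lost without replicate 1 at 0.5 µM. The call of GEN1 on the LNCaP-labelled arrays was lost without 1 array, and that in NCI-H660 without either of 2. Both of these GEN1 calls were lost after median centring, at 0.43 and -0.39 (adjusted p = 0.130 and 0.220). The calls of CHEK2 in NCI-H660 and RAD51C on the LNCaP-labelled arrays were lost without any 1 of 2 and 3 arrays. In these comparisons the second brightest probe sets of GEN1 and FANCM lay under the floor. A dimmer probe set of FANCM was detected, and it too was called higher at 0.5 µM on the LNCaP-labelled arrays. On the VCaP-labelled arrays only 1 of the 2 detected probe sets of FANCM was called lower at each concentration.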

How the results depend on the processing

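With 2 arrays a group, small changes are at the limit of what the fit can separate, and values near a signal of 100 carry wide error. Of 96 member calls, the number that kept direction and threshold was 96 with no floor, a floor of 200 or an intensity trend, 93 under quantile normalization, 91 with the replicate block, 88 at an adjusted p under 0.05, 84 after median centring, 74 with the mean of a gene's probe sets, 71 with the second brightest, 57 with each line fitted alone and 50 with the fold minimum. None of these reversed except 2 with the mean and 7 with the second brightest probe set, none of the 9 called. With the second brightest they were FANCM at -0.84 and GEN1 at -0.49 (labelled LNCaP, 0.5 and 10 µM), FANCC at 0.091 (labelled LNCaP, 10 µM) and at 0.78 and 0.95 (labelled VCaP), GEN1 at 0.44 (labelled VCaP, 0.5 µM) and RAD51C at -0.12 (NCI-H660, 10 µM). With the mean they were ATM at -0.0072 and FANCC at 0.53 (labelled VCaP, 0.5 and 10 µM). The cause was not tested.

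Counts that moved by over 1.5 times follow, as lower or higher members in each line. A 0 is by limma, and the number in parentheses after a setting is that at an unadjusted p under 0.05. For lower members on the LNCaP-labelled arrays, 12 became 6 with the fold minimum and 6 alone (0.5 µM), and 14 became 9 with the fold minimum (10 µM). In PC3 at 10 µM 5 became 3 after median centring, 3 with the second probe set, and 0 with the fold minimum (8 at an unadjusted p under 0.05) and alone (3). In NCI-H660 at 10 µM 4 became 1 after median centring, with the fold minimum and alone. For higher members labelled LNCaP at 0.5 µM, 3 became 0 after median centring (1 unadjusted), with the fold minimum (3) and alone (2), and 1 at the stricter p, with the mean and with the second probe set. At 10 µM 1 became 0 after median centring (1), with the fold minimum (2), with the second probe set (0) and alone (1). Labelled VCaP at 0.5 µM, 2 became 0 after median centring (2), with the fold minimum (2), the second probe set (1) and alone (1), and 1 at the stricter p and with the mean. At 10 µM 2 became 0 with the fold minimum (2) and alone (1), and 1 under quantile normalization, median centring, the stricter p, the mean and the second probe set. In PC3 at 0.5 µM 0 became 1 with a trend and 2 with the mean. At 10 µM 2 became 0 with the fold minimum (2) and alone (1), and 1 at the stricter p and with the second probe set. In NCI-H660 at 0.5 µM 0 became 1 under quantile normalization, median centring and the mean and 2 with a trend. At 10 µM 5 became 1 with the fold minimum and 3 alone.

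Between concentrations, the 2 calls labelled LNCaP became 4 under quantile normalization and with the mean, 7 with a trend, 5 with the second probe set, and 0 with the fold minimum (9 unadjusted) and alone (5). The 4 labelled VCaP became 1 after median centring and at the stricter p, 2 with a floor of 200, 8 with a trend, and 0 with the fold minimum (10) and alone (4). In PC3 0 became 1 with a trend and with the mean. The 2 of NCI-H660 became 1 after median centring, and 0 at the stricter p (6), with the fold minimum (6) and alone (4). The 15 further down labelled VCaP than LNCaP at 0.5 µM became 8 after median centring, and the 20 of both labels against PC3 and NCI-H660 at 10 µM became 11 with the fold minimum.

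Members below the index labelled LNCaP numbered 7 at 0.5 µM, 2 against replication genes and 4 alone, and 7 at 10 µM, 3 against replication and 11 against mitosis genes. Those above it numbered 11 at 0.5 µM, 7 with the second probe set or alone, 21 against replication and 6 against mitosis genes, and 18 at 10 µM, 6 against mitosis genes. Labelled VCaP 5 were below it at 0.5 µM, 2 with the mean and 3 with the second probe set or alone, and 8 at 10 µM, 5 against replication genes.

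Same-numbered arrays deviated together little (correlations of deviations from -0.084 to 0.110 in lines of 2 replicates). With 2 replicates this cannot exclude a culture or batch shared under the same number, so pairing was not settled. With the replicate block the higher members labelled VCaP went from 2 to 1 at each concentration, the calls between concentrations labelled VCaP from 4 to 2 and those in NCI-H660 from 2 to 1.

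Leaving out each array in turn gave, for lower and higher members, 9 to 13 and 0 to 3 labelled LNCaP at 0.5 µM, 11 to 15 and 0 to 1 at 10 µM, 20 to 24 and 0 to 2 labelled VCaP at 0.5 µM, 21 to 24 and 0 to 2 at 10 µM, 0 to 5 and 1 to 2 in PC3 at 10 µM, and 2 to 4 and 3 to 5 in NCI-H660 at 10 µM. Between concentrations it gave 1 to 3 labelled LNCaP, 0 to 4 labelled VCaP, 0 to 2 in PC3 and 0 to 2 in NCI-H660. The VCaP and LNCaP difference at 0.5 µM gave 9 to 15. Below the index it gave 4 to 7 labelled LNCaP and 2 to 5 labelled VCaP at 0.5 µM, and above it 7 to 11 labelled LNCaP at 0.5 µM. The higher members labelled LNCaP at 0.5 µM were 0 without vehicle replicate 1, the VCaP-labelled arrays at 0.5 µM 0 without vehicle replicate 1 or 0.5 µM replicate 2 and at 10 µM 0 without 10 µM replicate 2. In NCI-H660 the 4 lower at 10 µM were 2 without vehicle replicate 1 or 10 µM replicate 2, and the 5 higher 3 without vehicle replicate 2 or 10 µM replicate 1.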
